A study of Mus musculus with 12 samples.

Results

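The Mir130 and Mir301 family is a set of microRNA (miRNA) genes whose mature products share their seed, the bases that pair with target transcripts. Its members Mir130a, Mir130b, Mir301 and Mir301b were chosen by name, as the rows of the deposited small RNA table that carry these symbols. They are 4 of the 32101 features of the table and 4 of its 1577 miRNAs, and all 4 had reads in at least 1 library. In mouse embryonic stem cells (ESCs) lacking both Dicer and Dnmt1, Mir130a and Mir130b fell far below their wild-type level. Mir301 stood apart from them in Dnmt1 KO cells, where both libraries lay above all wild-type libraries while Mir130a and Mir130b overlapped wild type. Of all tested features 17.1% lay above wild type in this way, and the difference of Mir301 did not pass the threshold (limma adjusted p 0.0888).

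A miRNA is transcribed as part of a longer RNA, from which Drosha with Dgcr8 cuts a hairpin. Dicer then cuts the hairpin into a short duplex, and 1 strand is loaded into an Argonaute protein and guides it to transcripts by the seed. The family is known for roles in vessel growth, in fat cell formation through Pparg and in the reprogramming of fibroblasts to pluripotent cells. Dnmt1 is the methyltransferase that copies DNA methylation to the new strand after replication.

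The mature sequences are shown because the shared seed is what makes the 4 genes a family. They are from RefSeq with assembly GRCm38.p6, written 5′ to 3′ in lower case, with the seed (bases 2 to 8) in capitals.
miR-130a-3p (Mir130a): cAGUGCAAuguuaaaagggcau
miR-130b-3p (Mir130b): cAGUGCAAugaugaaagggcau
miR-301a-3p (Mir301): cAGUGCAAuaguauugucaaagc
For Mir301b the hairpin is given, with the same 7 letters in capitals, which occur in it 1 time and start at base 56.
Mir301b hairpin: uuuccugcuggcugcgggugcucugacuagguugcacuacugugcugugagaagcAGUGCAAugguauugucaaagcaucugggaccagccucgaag

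The first 9 bases were identical in the 3 mature sequences. Those of Mir130a and Mir130b differed at 2 of 22 bases and shared their last 9 bases, whereas that of Mir301 differed from them at 10 and 11 of the 22 bases compared. Mir130c, Mir721, Mir6341 and Mir6389 were the 4 other genes with a RefSeq mature sequence of this seed. None of them was a row of the deposited table. The table counts reads over the whole hairpin, so the values below join both arms.

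The 4 genes lie at 3 places in the genome (build NCBIM37). Mir130a is at chr2:84581272-84581335 on the minus strand, outside any annotated gene and 2460 bases from Ypel4. Mir301 is at chr11:86926506-86926591 on the plus strand, in an intron of Fam33a, a gene also known as Ska2 whose protein acts at kinetochores. Mir130b, at chr16:17124154-17124235, and Mir301b, at chr16:17124493-17124589, are both on the minus strand in an intron of 2610318N02Rik, with 257 bases between them. For all 4 the RefSeq hairpin matched the letters of NCBIM37 at the annotated interval.

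The libraries hold small RNAs of 20 to 24 nt from cultured mouse ESCs. Per the labels, 6 libraries were wild type (WT), 2 were Dnmt1 KO and 4 were Dicer/Dnmt1 KO, and all were labelled as E14. The study's methods describe instead a line of strain C57BL/6 in which Dnmt1 is flanked by loxP sites and is deleted by a tamoxifen-induced Cre, and a Dicer/Dnmt1 line made from it with CRISPR/Cas9. Which WT cells were used is not given per library, so genotype and a possible difference of line cannot be told apart. ESCs were grown with or without feeder cells, and the labels do not say which applied to which library. Libraries are named by number and letter as in their titles, and those that differ in the letter (A or B) alone are called a pair here (3 WT pairs, 1 Dnmt1 KO pair and 2 Dicer/Dnmt1 KO pairs). The series text mentions technical replicates, so A and B may be repeats of 1 sample, and p-values then measure only the spread between these libraries.

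Library reads ranged from 8710 to 245184. The shallowest was Dicer/Dnmt1 KO 1B, where 1 read was 115 RPM (reads scaled to a depth of 1000000), and WT 2A, with 16142 reads, was the shallowest of WT. The pair titled E14 2 (WT 2A and 2B) stood apart from the other WT libraries in its share of miRNA reads, 65.8% and 45.3% of the reads in the table against 29.5 to 34.0%. Results that rest on it are given with and without it. All 12 ESC miRNAs of a marker list (the Mir290 to Mir295 and Mir302 to Mir367 clusters) had reads in WT, where they summed to between 28680 and 93270 RPM. Small RNA reads do not measure the Dicer or Dnmt1 transcripts, so the deleted genes could not be checked directly. In bulk samples, fewer cells with a miRNA and less of it per cell cannot be told apart.

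In WT the members formed a steep order, with Mir130a far above the rest. Mir130a had 3438, 1958, 1735, 3937, 2813 and 2772 RPM in WT 1A, 1B, 2A, 2B, 3A and 3B, from 28 to 843 reads. Mir130b ranged from 374 to 906 RPM with a median of 608 RPM, from 11 to 182 reads. Mir301 ranged from 53.0 to 199.7 RPM with a median of 76.0 RPM, from 2 to 28 reads, and its highest values were those of the E14 2 pair. Mir301b ranged from 0 to 78.5 RPM with a median of 39.8 RPM, and had no read in WT 2A and 11 reads at most. Both rarer members therefore rested on few reads in every WT library.

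Per 100 bases of hairpin, the WT levels were 4337 ± 1310 RPM for Mir130a, 763 ± 230 RPM for Mir130b, 113 ± 65.6 RPM for Mir301 and 42.7 ± 34.3 RPM for Mir301b (SD, n = 6). The ranges of Mir130a, Mir130b and Mir301 did not overlap, whereas those of Mir301 and Mir301b did. In Dnmt1 KO the levels on the same scale were 3938 ± 509, 780 ± 211, 534 ± 147 and 105 ± 41.0 RPM (SD, n = 2). The order was the same, though Mir301 in library B (638 RPM per 100 bases) was above Mir130b in library A (631 RPM). Within each library Mir130b was above Mir301, at 631 against 429.5 RPM in A and 929 against 638 RPM in B. The plot of RPM by library shows these levels with their counting errors.

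**Figure D1:**
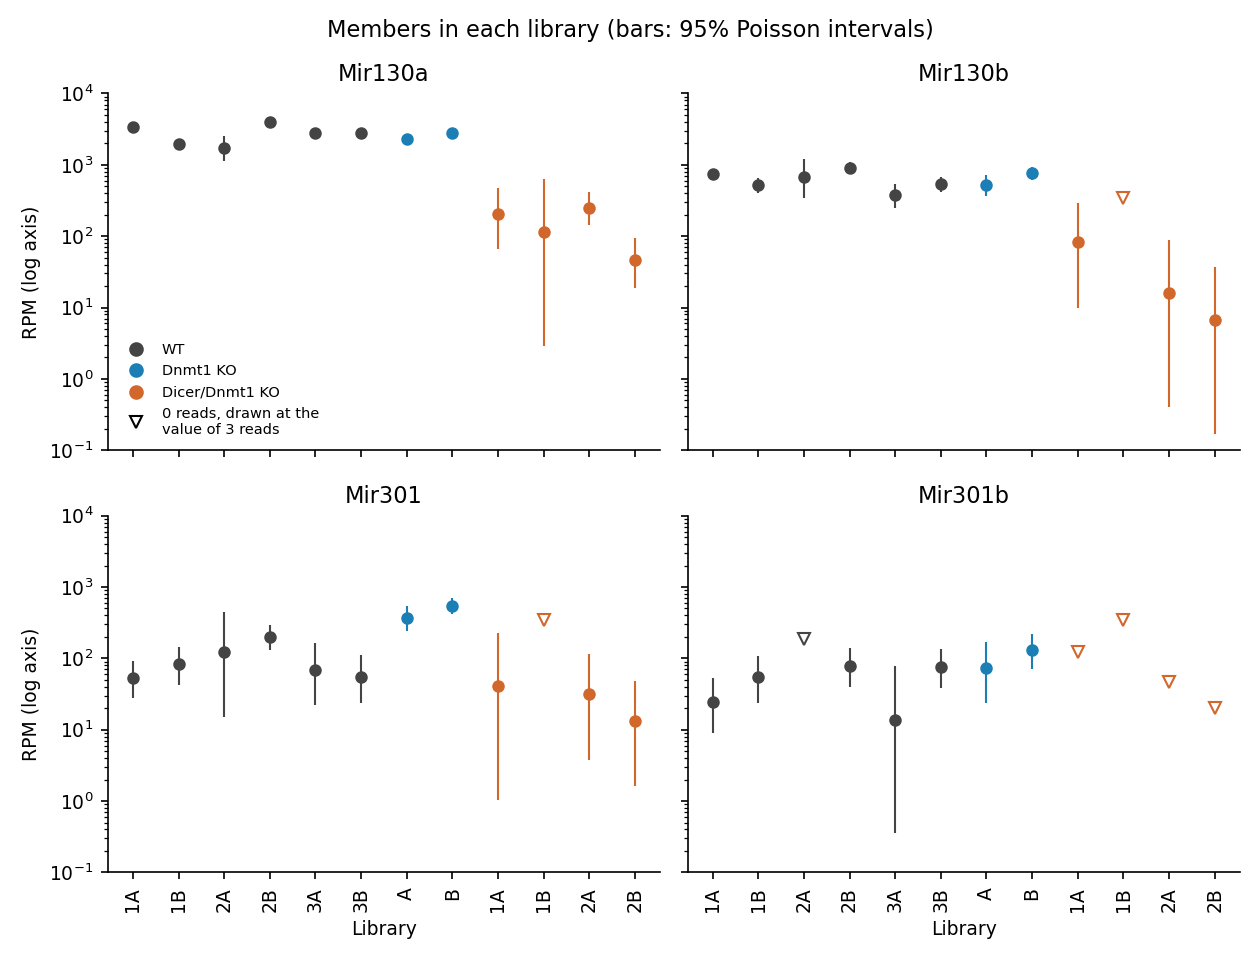
RPM (log axis) of each member in the 12 libraries, with exact 95% Poisson intervals that cover counting error only. Open triangles mark libraries with 0 reads, drawn at the value of 3 reads. Mir130a lies between 1735 and 3937 RPM in WT and between 46.5 and 252 RPM in Dicer/Dnmt1 KO, and Mir301 is at 369 and 548 RPM in Dnmt1 KO, above its 6 WT libraries.

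The loss of Dicer together with Dnmt1 was examined first, since Dicer makes the mature strand. Mir130a, Mir130b and Mir301 were all lower, and Mir301b had no read left. In this comparison 3 members were tested and 3 were lower (limma, adjusted p under 0.05), where 19.0% of the 683 tested features were called lower. Of the 133 tested miRNAs, 81 were called lower. The RPM of these 3 members was below every WT library in all Dicer/Dnmt1 KO libraries, a pattern that 12.9% of tested features had. The median fold change of the 3 was -5.05, beside -2.75 for the 133 tested miRNAs and -0.09 for all tested features. Fold changes are on the log2(RPM + 10) scale after scaling by the trimmed mean of M values (TMM), which understates the change of rare miRNAs.

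In the libraries 1A, 1B, 2A and 2B of the double knockout Mir130a had 204, 115, 252 and 46.5 RPM, from 5, 1, 16 and 7 reads. Its highest value was far below the lowest WT value of 1735 RPM. The fold change was -5.05 (SE 0.42, limma adjusted p 8.15e-07), and 17 of the other tested miRNAs had a lower one. Pooled over libraries, 29 reads remained where WT had 2309, a ratio of 25.8 in favour of WT after depth (exact 95% interval 17.9 to 38.6, counting error only). Library 2B holds 150701 of the 247330 reads of the group, and the ratio was 13.3 without it and 42.8 without 2A, so libraries differed by more than that interval covers.

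Mir130b had 81.7, 0, 15.8 and 6.64 RPM in the same libraries, from 2, 0, 1 and 1 reads, against at least 374 RPM in WT. Because the 0 in library 1B allows up to 344 RPM (3 reads), that library alone says little. The fold change was -5.12 (SE 0.57, limma adjusted p 1.04e-05). Pooled, 4 reads stood against 499, a ratio of 40.5 with a counting interval of 15.7 to 149 (21.1 without library 2B and 72.9 without 1A), so the extent of its loss is known only roughly.

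Mir301 had 40.8, 0, 31.5 and 13.3 RPM, from 1, 0, 2 and 2 reads. The highest of these was just below the lowest WT library at 53.0 RPM, and the Poisson interval of that highest value reached 227 RPM. In library 1B the 0 allows up to 344 RPM, above every WT value of Mir301, so that library does not bear on its separation from WT. The fold change was -2.39 (SE 0.61, limma adjusted p 0.00873), with 75 tested miRNAs lower and 57 higher, near the middle of the miRNAs. Pooled, 5 reads stood against 68, a ratio of 4.41 (exact 95% interval 1.8 to 14, counting error only), or 2.87 without library 2B. Set against Mir130a within each library, Mir301 did not differ past the threshold. There were 20, 0, 12.5 and 28.6 reads of it per 100 reads of Mir130a in Dicer/Dnmt1 KO and 1.54 to 7.14 in WT (exact two-sided permutation p 0.0667, where 0.00952 is the smallest possible). The 0 is that of library 1B, which had 1 read of Mir130a and none of Mir301, so it says little. In 1A, 2A and 2B the ratio was above all WT libraries, though from 1, 2 and 2 reads of Mir301. The call was lost on the deposited log2 RPM (-1.25, adjusted p 0.117), with A and B summed (-1.92, adjusted p 0.0978), without a filter on low values (-2.33, adjusted p 0.373) and with a replicate block (-2.63, adjusted p 0.0512). Without E14 2 it was -1.67 (limma adjusted p 0.0212).

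Mir301b did not reach the minimum level for the test. It had no read in any of the 4 Dicer/Dnmt1 KO libraries and 37 reads over the 6 WT libraries. Against a floor of 3 reads over the group, its pooled level was at least 4.0-fold lower than in WT, and the lower limit of an exact 95% interval was 3.09-fold. Without library 2B the same floor gave at least 1.56-fold. No fold change is given for it beyond these bounds. Without E14 2 the fold changes of Mir130a and Mir130b were -4.61 and -4.63 (limma adjusted p 6.75e-06 and 6.08e-05).

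The 12 ESC miRNAs summed to between 1221 and 3797 RPM in Dicer/Dnmt1 KO, below WT, and 10 of the 10 tested were lower (limma). The fibroblast and feeder cell miRNAs (Mir21, Mir143, Mir145, Mir10b, Mir214 and the Mir199 genes) summed to between 9522 and 28550 RPM, where WT had 6688 to 9236 RPM. Of the 3 tested after TMM scaling, 1 was higher and none lower (limma), with fold changes from -0.66 to 2.95 and a median of -0.34. The part of feeder cells in the members' values was not tested.

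Dnmt1 KO was compared with WT to see how the family stood when Dnmt1 was deleted and Dicer was present. None of the 3 tested members was called (limma, 0 of 3), where 6.88% of tested features were called. At an unadjusted p under 0.05, 1 of the 3 passed, Mir301 (p 0.00780 from the same limma fit), and with voom weights in limma it was called. The median of the 3 fold changes was 0.22, beside 1.40 for all tested miRNAs and 0.13 for all tested features.

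Mir130a had 2290 and 2751 RPM in Dnmt1 KO A and B, inside the WT range. Its fold change was 0.07 (95% interval -1.07 to 1.22, limma adjusted p 0.970), and its sign turned under library-read scaling (-0.09). Mir130b had 517 and 762 RPM, also inside the WT range, with a fold change of 0.22 (95% interval -1.34 to 1.77, limma adjusted p 0.921). These intervals leave room for changes of either sign. Both members lay in the lower part of the miRNAs, with 24 and 26 tested miRNAs below them.

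Mir301 had 369 and 548 RPM in Dnmt1 KO A and B, from 25 and 59 reads. Both values were above the highest WT library, 199.7 RPM in WT 2B, as was the case for 17.1% of tested features. They were also above WT after TMM scaling, at 504 and 718 RPM against at most 296 RPM in WT 2A. The fold change was 2.40 (SE 0.77, 95% interval 0.75 to 4.06), which did not pass the threshold (limma adjusted p 0.0888), and 30 tested miRNAs had a higher one. Pooled, 84 reads stood against 68 in WT, which had 762641 library reads against 175285, a ratio of 5.37 in favour of Dnmt1 KO (exact 95% interval 3.86 to 7.51, counting error only).

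Whether Mir301 was called depended on the processing and on the E14 2 pair. Without E14 2 the fold change was 2.94 (limma adjusted p 0.00540), but Mir301 then reached the minimum level for the test through the 2 Dnmt1 KO libraries alone, where it is high, so this call is no independent support. It was also called without WT 2A alone (2.70, adjusted p 0.0215), without WT 2B alone (2.67, adjusted p 0.0462), with TMM factors from features other than miRNAs (2.57, adjusted p 0.0452), with a pseudocount of 50 RPM (2.01, adjusted p 0.0195) and with voom weights (2.72, adjusted p 0.00686). In 19 of the 25 alternatives Mir301 was not called. Among these was the fit that allowed a correlation within pairs (2.40, adjusted p 0.204). That fit bears on the result because the Dnmt1 KO libraries form 1 pair. Summing the libraries of each pair gave a fold change of 2.535, but it left 1 Dnmt1 KO value, so no p-value is given. Over all 25 alternatives the fold change stayed between 2.01 and 2.94 and the adjusted p ranged from 0.00540 to 0.615. The plot of Mir301 by processing gives each of these fits.

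**Figure D2:**
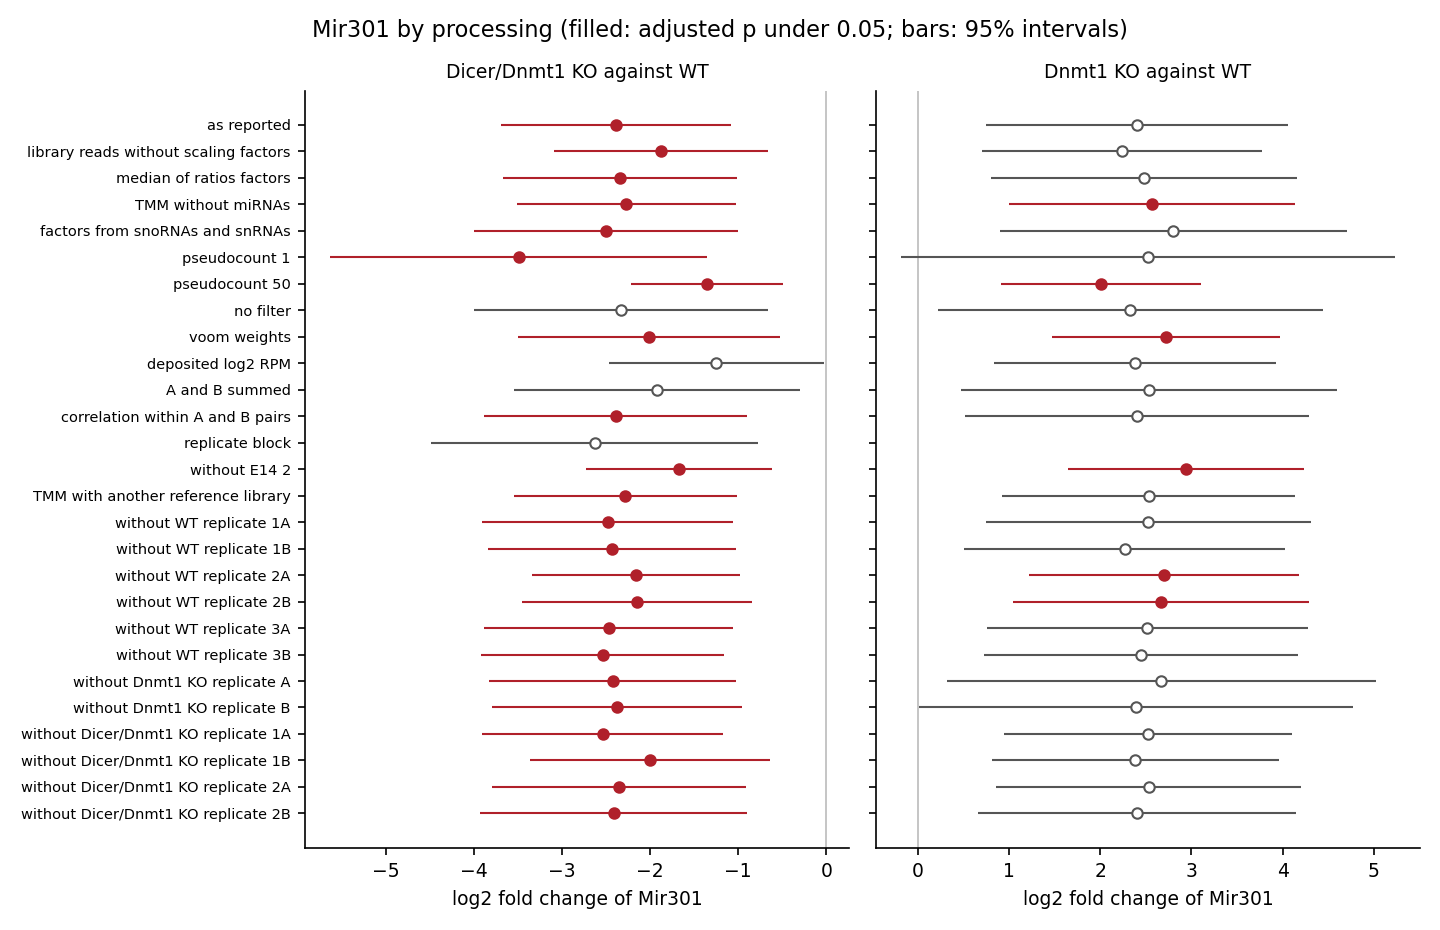
Log2 fold change of Mir301 against WT (x axes) under each processing alternative (rows), with 95% intervals. Filled points have an adjusted p under 0.05. Against WT, all fits for Dicer/Dnmt1 KO lie below 0 and all fits for Dnmt1 KO lie above 0, between 2.01 and 2.94.

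The fibroblast and feeder cell miRNAs were also higher in Dnmt1 KO. Of the 8 on the list 7 were rows and 5 had reads in both groups, and they summed to between 23790 and 27630 RPM in Dnmt1 KO against 6688 to 9236 RPM in WT. Of the 3 tested, 2 were called higher (limma), with fold changes from 1.23 to 3.63 and a median of 1.73. All 133 tested miRNAs had a median of 1.40, and 28 of them were called higher. The rows of the list without reads in either group were Mir199a-1 and Mir199a-2, and Mir199b was not a row. The 12 ESC miRNAs summed to 55930 and 99650 RPM in the Dnmt1 KO libraries, where WT had 28680 to 93270 RPM. Of the 10 tested, 0 were called (limma), with a median fold change of -0.06, where 6.88% of tested features were called. Whether feeder cells had a part in the Mir301 values was not tested. The share of miRNAs in the table's reads was 53.4% and 51.4% in Dnmt1 KO, between those of the E14 2 libraries and above the other WT libraries.

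Because this share differs between libraries, Mir301 was also set against the other members inside each library, a measure chosen after its values had been seen. Mir301 made up 1.25, 3.17, 4.88, 3.90, 2.12 and 1.62% of the family's reads in WT 1A, 1B, 2A, 2B, 3A and 3B. It made up 11.4% (Wilson 95% interval 7.82 to 16.2%) and 13.1% (10.3 to 16.5%) in Dnmt1 KO A and B. Both were above all WT libraries, although the interval of WT 2A, with 2 Mir301 reads, reached 16.1%. The mean share was 4.33 times that of WT, with an exact two-sided permutation p of 0.0714, the smallest that 2 against 6 libraries can give. Without E14 2 it was 6.00 times that of WT, with a permutation p of 0.133, again the smallest possible.

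The same held against each of the more abundant members. For every 100 reads of Mir130a there were 16.1 and 19.9 reads of Mir301 in Dnmt1 KO and between 1.54 and 7.14 in WT. For every 100 reads of Mir130b there were 71.4 and 72.0 in Dnmt1 KO and between 7.14 and 22.0 in WT. As a share of all miRNA reads, Mir301 was at 0.0564 and 0.0875% in Dnmt1 KO and between 0.0154 and 0.0395% in WT. Each of these 3 measures gave the same exact permutation p of 0.0714, the smallest possible. They share the Mir301 reads with the measure before, so they are no separate support.

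**Figure D3:**
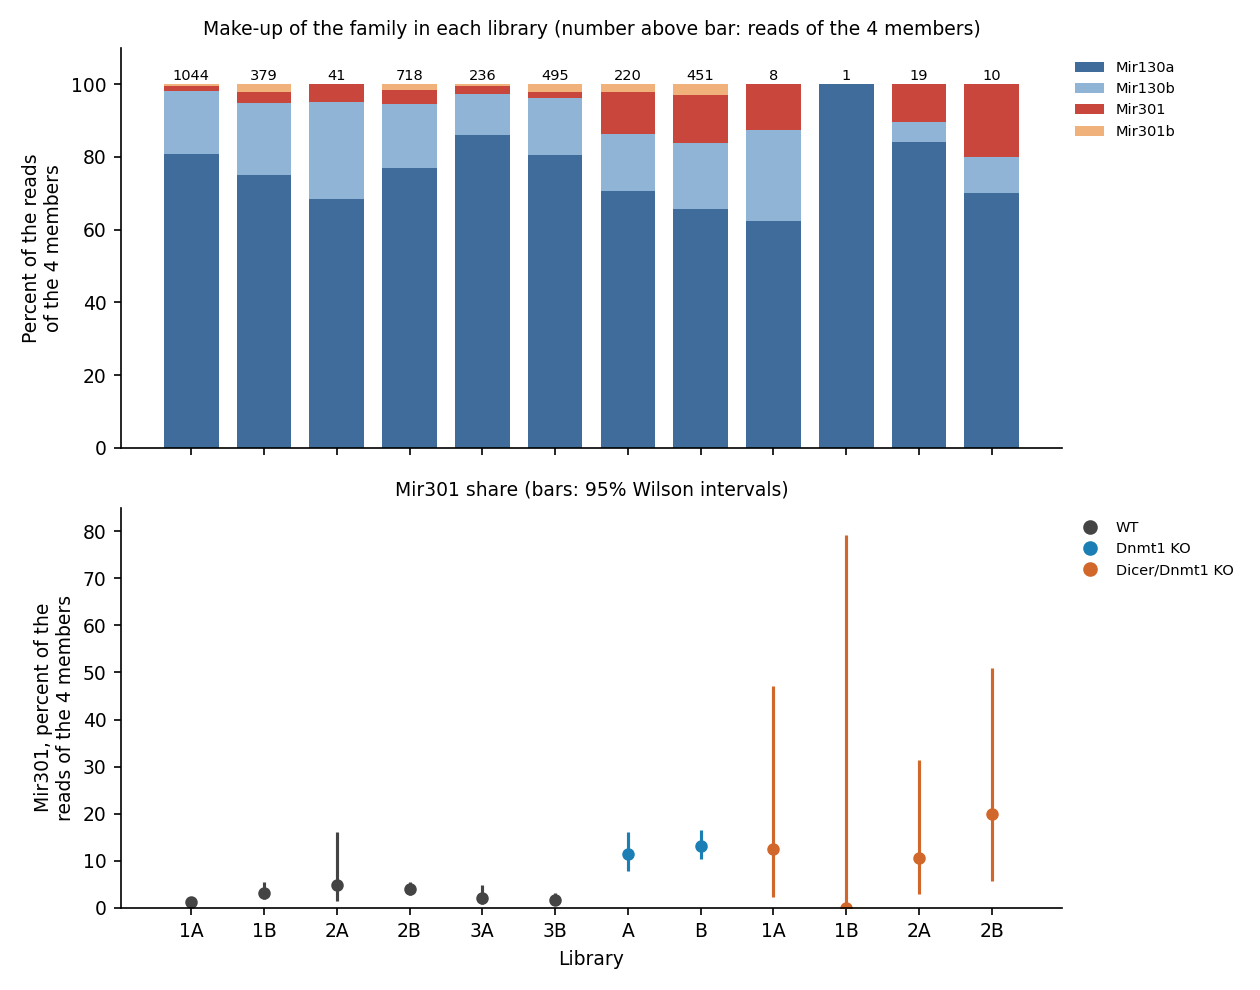
Upper panel, the percent of the family's reads that each member contributes in the 12 libraries, with the number of reads above each bar. Lower panel, the Mir301 percent with 95% Wilson intervals. Mir301 is at 11.4 and 13.1% in Dnmt1 KO and between 1.25 and 4.88% in WT, and the Dicer/Dnmt1 KO bars rest on 1 to 19 reads.

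Mir301b had 73.9 and 130 RPM in Dnmt1 KO A and B, from 5 and 14 reads, so that its lower library was inside the WT range. Pooled, its level was 2.23 times that of WT (exact 95% interval 1.21 to 3.99, counting error only). Without the filter on low values its fold change was 1.499 (SE 0.86, limma adjusted p 0.818). Of the reads of Mir130b and Mir301b together, which lie in the same intron, Mir301b had 12.5 and 14.6% in Dnmt1 KO and between 0 and 12.5% in WT. Mir301b was thus the minor partner in all 8 of these libraries, and the 2 groups met at the same value of 12.5%.

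The third comparison, of the double knockout against Dnmt1 KO, looks at the family without Dicer where both groups lack Dnmt1. All 3 tested members were lower (limma), where 21.7% of tested features and 99 of the 133 tested miRNAs were called lower. Each was below both Dnmt1 KO libraries in all 4 Dicer/Dnmt1 KO libraries, a pattern that 22.3% of tested features had. The median fold change was -5.13, beside -4.17 for tested miRNAs and -0.16 for all tested features. This comparison shares its libraries with the 2 described before.

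All 3 members fell. The fold change was -5.13 (SE 0.56, limma adjusted p 1.75e-05) for Mir130a, -5.34 (SE 0.77, limma adjusted p 0.000119) for Mir130b and -4.79 (SE 0.81, limma adjusted p 0.000436) for Mir301. Dnmt1 KO is 1 pair, whose libraries may be repeats of 1 sample. With a correlation allowed within pairs, the limma adjusted p was 0.000125, 0.000696 and 0.00162. Summing the libraries of each pair gave -4.81, -4.81 and -4.46, but it left 1 Dnmt1 KO value, so no p-value is given. With a pseudocount of 1 and of 50 RPM, Mir130b was at -6.71 and -3.80 and Mir301 at -6.02 and -3.36, all still called. Pooled ratios in favour of Dnmt1 KO were 21.9 (exact 95% interval 15.1 to 33.1), 41.3 (15.7 to 154) and 23.7 (9.77 to 74.9), whose intervals overlap. Without library 2B of the double knockout the ratios were 11.3, 21.5 and 15.4, without 2A that of Mir130a was 36.4, and without 1A that of Mir130b was 74.4. Mir301b had 19 reads in Dnmt1 KO and none here. Against a floor of 3 reads over the group it was at least 8.94-fold lower, with an exact 95% lower limit of 6.58-fold, and at least 3.49-fold lower without library 2B. Without the filter it was called too, at -3.78 (SE 0.91, limma adjusted p 0.00595). The plot of fold changes sets the 3 comparisons side by side.

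**Figure D4:**
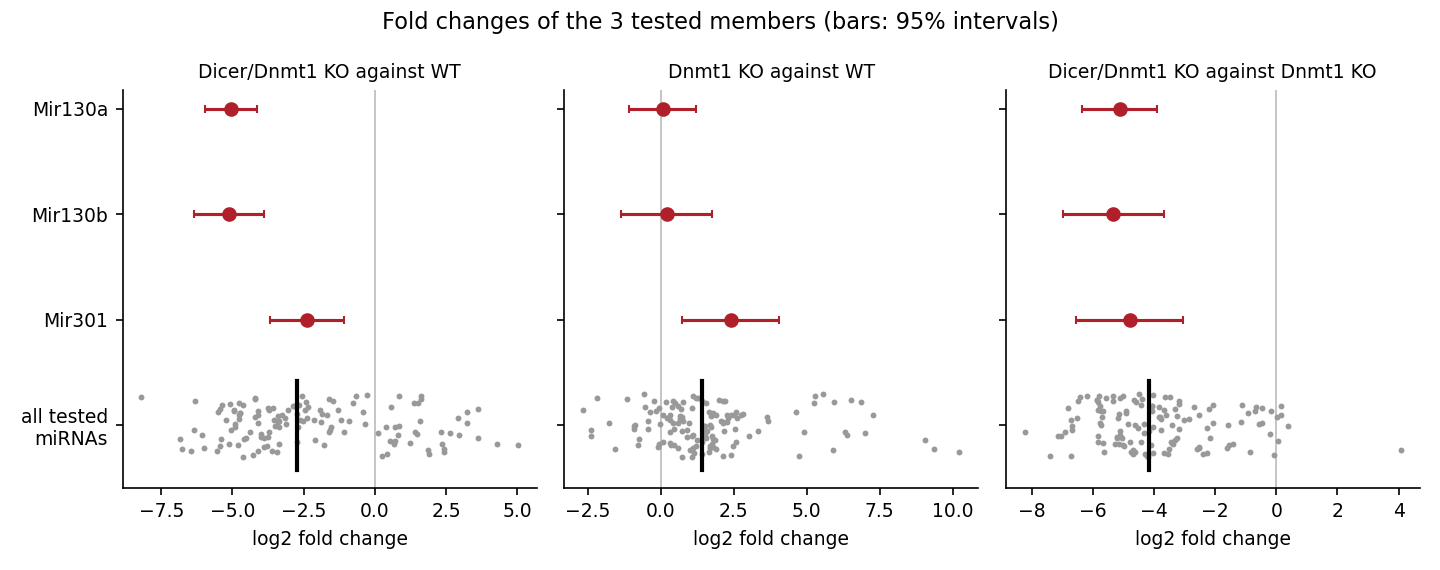
Log2 fold changes (x axes) of the 3 tested members with 95% intervals, above the 133 tested miRNAs as grey points with their median as a black line. Mir130a and Mir130b are near 0 in Dnmt1 KO against WT and near -5 in both comparisons of Dicer/Dnmt1 KO, and Mir301 is at -2.39, 2.40 and -4.79.

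The members summed to 3540 ± 996 RPM in the 6 WT libraries (mean ± SD), to 3721 ± 665 RPM in the 2 Dnmt1 KO libraries and to 201.8 ± 130 RPM in the 4 Dicer/Dnmt1 KO libraries. Mir130a alone gave between 68.3 and 86.0% of it in WT. As a share of all miRNA reads the sum was 0.898 ± 0.367% in WT, 0.583 ± 0.122% in Dnmt1 KO and 0.207 ± 0.0926% in Dicer/Dnmt1 KO. In WT this share ran from 0.366% in WT 2A (Wilson 95% interval 0.270 to 0.496%) to 1.47% in WT 1A (1.38 to 1.56%), intervals that do not overlap. WT libraries thus differed from each other by more than counting error. The Dnmt1 KO values of 0.497 and 0.669% were above WT 2A and below the other 5 WT libraries, which ran from 0.679 to 1.47%. Without E14 2 the WT mean was 1.00%. The Wilson interval of Dnmt1 KO B (0.61 to 0.733%) held the 0.679% of WT 1B, the lowest of those 5 WT libraries. Whether counting error accounts for the gap between these libraries was not tested. How many features lie below these 5 WT libraries in the same way was not computed. Dicer/Dnmt1 KO shares ran from 0.0930 to 0.292%, below all WT libraries. The Wilson intervals of 1A (0.138 to 0.536%), 1B (0.0303 to 0.967%, from 1 read) and 2A (0.187 to 0.456%) overlapped that of WT 2A, however. That of 2B (0.0506 to 0.171%) lay below it.

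The choice of scaling shifted all features together. With library reads alone the median fold change of all tested features in Dicer/Dnmt1 KO against WT was 0.61 in place of -0.09. Mir130a, Mir130b and Mir301 remained lower there, and in all 3 comparisons only the sign of Mir130a in Dnmt1 KO turned.

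The host genes carried the same reads as the miRNAs inside them. Fam33a had at most 3 reads beyond those of Mir301 in any library, and 2610318N02Rik at most 1 beyond those of Mir130b and Mir301b. Their fold changes in Dnmt1 KO against WT were accordingly 2.34 and 0.33, next to those of Mir301 and Mir130b. Ypel4, Prr11, Gm11491 and Sdf2l1, the other features within 10 kb of a member, had 0 to 2 reads per library. The files therefore hold no separate measure of transcription around the 3 loci.

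The miRNAs with a seed shifted by 1 base or sharing 6 of the 7 letters were looked at as neighbours in sequence. There were 8 such rows, of which 4 were tested. All 4 were lower in Dicer/Dnmt1 KO against WT (limma), with a median of -4.72. Of all tested features 19.0% were called lower there, as were 81 of the 133 tested miRNAs. In Dnmt1 KO against WT 0 of 4 were called by limma, where 6.88% of tested features were called. In that comparison 2 had an unadjusted p under 0.05 and 1 was called with voom weights (Mir148b). By reads in WT the 4 tested rows were Mir148a, Mir291b, Mir19a and Mir148b, and their seeds are shown to set them beside that of the family.
miR-148a-3p: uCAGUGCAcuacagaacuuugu
miR-291b-3p: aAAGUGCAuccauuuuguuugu
miR-19a-3p: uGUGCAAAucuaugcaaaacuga
miR-148b-3p: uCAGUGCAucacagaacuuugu
Mir148a and Mir148b, whose mature strands differ little from each other, had fold changes of 1.86 and 2.00 in Dnmt1 KO against WT, with unadjusted p of 0.0125 and 0.00923 and limma adjusted p of 0.116 and 0.100. Mir291b, of the ESC cluster, and Mir19a, of the Mir17-92 cluster, were at -0.92 and -0.75. The 4 values were thus of both signs.

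Mir93 is a miRNA of the Mir106b-25 cluster. Its fold change was -4.76 in Dicer/Dnmt1 KO against WT (95% interval -5.76 to -3.76), which covers the values of Mir130a and Mir130b, and 0.96 in Dnmt1 KO against WT (limma adjusted p 0.428).

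Among 130 other tested miRNAs, the 5 whose scaled log2 level was most like that of the summed family over the 12 libraries were Mir142 (Pearson r 0.989), Mir92-1 (0.988), Mir25 (0.987), Mir30e (0.981) and Mir200a (0.979). Since the groups differ in level, r was also taken within groups. After group means were subtracted, r was 0.890, 0.777, 0.90, 0.780 and 0.529. Among the members themselves, r after subtraction was 0.70 for Mir130a and Mir130b, 0.66 for Mir130a and Mir301 and 0.82 for Mir130b and Mir301. The points share library depth and scaling factors, and reads of Mir92-1 may also come from its near-identical copy Mir92-2.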

How the data were processed

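Per the submitters' processing notes and the methods, the authors trimmed reads with Trim Galore (0.3.5 in the notes, while the methods name a later version for other assays), kept 20 to 24 nt, mapped them with Bowtie2 2.2.6 to NCBIM37 and counted overlaps with annotated features in SeqMonk. The placement of reads with several mapping positions is not stated. The deposited values are log2 RPM, with 0 reads written as 0.9 read. Setting each column's lowest value to 0.9 read returned whole reads (tolerance 0.02) for 100.0% of values in all 12 columns, and each library's depth. A further 89 value columns, which match none of the samples, were left out.

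Features with at least 111.3 RPM (10 reads at median depth) in 2 libraries and 15 reads in all were tested, which left 683 features, 133 miRNAs and 3 members. Recovered reads were scaled by TMM (30% and 5% trims) and log2(RPM + 10) was fitted with limma 3.58.1 in R 4.3.3, in 1 fit of 12 libraries with an intensity trend. Benjamini-Hochberg adjustment ran over all tested features, with a threshold of 0.05. The script was tested on simulated data. A count test was not run, since the deposited unit is log2. The TMM reference library was settled after a first fit with another reference had been seen, which is kept as an alternative.

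Named were the members, miRNA rows with the same seed, features within 10 kb, Mir93, the 5 most alike miRNAs and up to 4 seed neighbours. Members and lists were chosen with earlier results of these data known. Chi-square per degree of freedom between A and B ranged from 9.08 to 24.67, so A and B differed by more than counting error. This does not show that they are separate samples. They were kept separate in the main fit, and alternatives summed them or allowed a correlation within pairs, estimated at 0.302. Poisson, Wilson and exact intervals of reads cover counting error only, since reads carry no molecular identifiers, whereas intervals of limma fold changes rest on the spread between libraries. Leaving libraries out of the pooled ratios was added after seeing the data. Gene places and types are from a GENCODE annotation on NCBIM37. Figures and intervals used Python 3.11.15, scipy 1.17.1 and matplotlib 3.10.9.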

Additional observations from a re-analysis of the deposited data

How the results depend on the processing

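The number of members called in Dicer/Dnmt1 KO against WT was 3, and 2 or 3 under the 26 alternatives. In Dicer/Dnmt1 KO against Dnmt1 KO it was 3 and ranged from 3 to 4. In Dnmt1 KO against WT it was 0, and it became 1 (Mir301) with TMM without miRNAs, a pseudocount of 50, voom weights and without E14 2, and ranged from 0 to 1 when each library was left out in turn. Those that moved it were WT 2A and WT 2B. The other TMM reference library, chosen after seeing the data, gave Mir301 a fold change of 2.53 (adjusted p 0.0565) and changed no call. Mir130a in Dnmt1 KO against WT changed sign with library reads (-0.087), on the deposited log2 RPM (-0.087), without a filter (-0.018) and without WT 1B, and ranged from -0.141 to 0.410 when each library was left out. The cause of these changes was not tested.

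WT and Dicer/Dnmt1 KO share the labels 1A, 1B, 2A and 2B. Deviations of same-labelled libraries had correlations of -0.233, 0.112, -0.167 and -0.285, so the labels did not pair them. With a replicate block over these 8 libraries 2 members were called, Mir301 being at -2.63 (adjusted p 0.0512), and 121 features in place of 165. Depth limits Mir130b, Mir301 and Mir301b in Dicer/Dnmt1 KO, where each had 0 to 2 reads per library. Fold changes there against Dnmt1 KO ranged over the alternatives from -6.71 to -3.80 for Mir130b and from -6.02 to -3.36 for Mir301.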
